A study of Mus musculus with 55 samples.

Results

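Opioid receptors and the precursors of their peptide ligands were followed in the dorsal hippocampus of 55 mice. The 7 genes were chosen by name: the receptor genes Oprm1, Oprd1, Oprk1 and Oprl1 and the precursor genes Pdyn, Penk and Pnoc. They are 7 of the 55487 Ensembl genes counted. Of them, 4 (Oprl1, Pdyn, Penk and Pnoc) exceeded 1 CPM (reads of a gene scaled to the total count of its library) in at least 10 libraries and belong to the 16168 genes tested, whereas Oprm1, Oprd1 and Oprk1 did not. Each library came from the dorsal-most hippocampus of 1 mouse, on a C57BL/6J background. Wild-type (WT) mice comprised 5 males, 7 estrus, 5 proestrus, 6 diestrus and 4 metestrus females. Mice of the Cnih3 knock-out (KO) line, which lacks exon 4 of Cnih3 in every cell, comprised 7 males, 6 estrus, 4 proestrus, 6 diestrus and 5 metestrus females. Cnih3 encodes an auxiliary protein of AMPA-type glutamate receptors and has been linked to opioid dependence, and the stages of the cycle were read from vaginal cells. Ages ran from 10.86 to 23.71 weeks and were uneven between groups: the KO diestrus mice had a median age of 12.43 weeks, the KO proestrus mice 13.3 weeks and the KO males 18.29 weeks. The parents of all 28 KO mice and of 11 of the 27 WT mice were labelled Cnih3 x B6 in the study's sample table. Those of the other 16 WT mice were labelled B6 x B6. The paper describes KO offspring of Cnih3 heterozygotes mated with each other or at times with homozygotes. It refers to that sample table for the parents' genotypes, which the label alone does not give for each parent. In the paper's principal component analysis, WT mice did not clearly separate by parental genotype.

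Opioid peptides are cut from larger precursor proteins and act on inhibitory G protein-coupled receptors. Prodynorphin gives dynorphins, which prefer the kappa receptor. Proenkephalin gives enkephalins, which act on the delta and mu receptors, and pronociceptin gives nociceptin, the ligand of the related nociceptin receptor. In the hippocampus dynorphin is stored in the mossy fibers of dentate granule cells, enkephalin in granule cells, interneurons and the lateral perforant path, and Pnoc is expressed mainly by interneurons.

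The precursors differ in the peptides they carry, so codons of these peptides are printed here from the reference transcripts. Of the 268 codons of the Penk coding sequence (Penk-201), 7 stretches encode the shared opioid core of 4 residues, 6 followed by methionine and 1 by leucine. Pdyn (Pdyn-201, 248 codons) holds 3 copies, each followed by leucine, which begin neoendorphin, dynorphin A and dynorphin B. Pnoc (Pnoc-201, 187 codons) holds 1 related stretch, which begins nociceptin, with a phenylalanine codon in place of the tyrosine codon at its first position and threonine after the core. All lie on the minus strand of GRCm38. Capitals mark the 4 core codons and the codon after them, and lower case marks 2 codons on each side, most of which encode lysine or arginine. The pair before each core is a site where the precursor is cut. The first copy of Penk and its leucine copy are shown beside the 3 of Pdyn and the 1 of Pnoc.
Penk copy 1, chr4:4134328-4134354: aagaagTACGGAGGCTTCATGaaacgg
Penk copy 6, chr4:4133935-4133961: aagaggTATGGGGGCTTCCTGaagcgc
Pdyn copy 1, chr2:129688232-129688258: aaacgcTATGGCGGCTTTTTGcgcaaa
Pdyn copy 2, chr2:129688124-129688150: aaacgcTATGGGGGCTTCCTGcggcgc
Pdyn copy 3, chr2:129688067-129688093: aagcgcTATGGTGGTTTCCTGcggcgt
Pnoc, chr14:65404872-65404898: aaaaggTTTGGGGGCTTCACCggggcc

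Total counts per library ranged from 25881295 to 63547098 reads, with a median of 53384170. The targeted gene checked the labels only in part, since the deletion removes 1 exon and the count covers the whole gene. Cnih3 ranged from 4.43 to 5.96 log2 CPM in WT libraries and from 4.43 to 5.58 in KO libraries, and was lower in KO over all groups (log2 fold change -0.34, SE 0.079, FDR 0.00692). One library stood apart for Penk, KO estrus replicate 1, and results that rest on it are given with and without it. Throughout, log2 CPM is the level of a library after TMM normalization (CPM alone is without it), a log2 fold change is the first group minus the second in 1 limma model over all 10 groups, the FDR is the Benjamini-Hochberg adjusted p within a comparison, and a gene is called at an FDR under 0.05.

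Per kilobase of exon, Penk had the highest level of the 7 genes and the classical receptors the lowest. In RPKM (CPM per kilobase of exon), the median over the 55 libraries was 20.2 for Penk, 6.04 for Oprl1, 5.84 for Pnoc and 5.09 for Pdyn. It was 0.131 for Oprd1, 0.0523 for Oprk1 and 0.0292 for Oprm1. The nociceptin receptor was thus the only receptor of the 4 whose level was of the order of the precursors, and the ranges of Oprl1 (4.25 to 8.72 RPKM), Pnoc (3.79 to 8.97) and Pdyn (2.42 to 7.93) overlapped.

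The mu receptor gene Oprm1 (chr10:6758506-7038198, plus strand), whose product binds morphine and enkephalins, had a median of 12 reads per library, at most 40, and none in 3 libraries. The delta receptor gene Oprd1 (chr4:132110726-132144486, minus strand), for enkephalins, had between 2 and 64 reads with a median of 27. The kappa receptor gene Oprk1 (chr1:5588466-5606131, plus strand), for dynorphins, had between 4 and 62 reads with a median of 25. In CPM, 0 libraries exceeded 1 for Oprm1, 2 for Oprd1 and 5 for Oprk1. The counts of these receptors overlapped widely across all 10 groups. Oprm1 shares its locus with Ipcef1 and Gm10945 on the opposite strand, and whether the authors counted by strand is not given in the sources used here, so its few reads cannot be assigned with certainty.

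**Figure D1:**
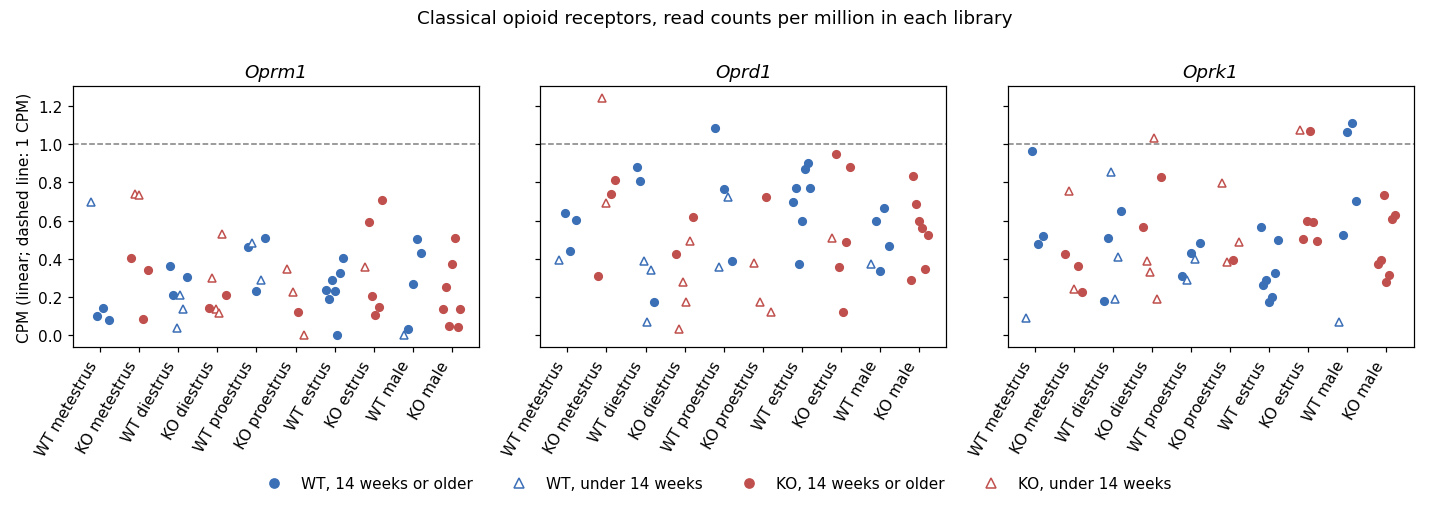
CPM (linear scale) of Oprm1, Oprd1 and Oprk1 in each of the 55 libraries, by group. Circles are mice of 14 weeks or older and open triangles younger mice, blue is WT and red is KO, and the dashed line marks 1 CPM. No group stands apart from the others, and 0, 2 and 5 libraries lie above the line.

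With no filter on low counts, limma called 0 of 117 comparisons of the 3 classical receptors, and 8 had an unadjusted p under 0.05. edgeR and DESeq2 were not run on these genes. The smallest FDR belonged to Oprd1 in KO metestrus minus diestrus, at 1.55 on the log2 scale (SE 0.470, FDR 0.097). Its difference was -1.26 in WT diestrus minus estrus (SE 0.473, FDR 0.104) and -1.19 in KO diestrus minus male (SE 0.459, FDR 0.119), on counts of 4 to 46 reads in WT diestrus and 2 to 35 in KO diestrus. None of these passed the threshold.

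The nociceptin receptor gene Oprl1 (chr2:181715016-181720985, plus strand) was higher in KO than in WT mice. In the 27 WT libraries its level ranged from 4.09 to 4.86 log2 CPM with a median of 4.46, and in the 28 KO libraries from 4.16 to 5.05 with a median of 4.67. The ranges overlapped over most of their width. Averaged over the 5 sex and stage groups, KO exceeded WT by 0.26 on the log2 scale (SE 0.0547, FDR 0.00297), a fold of 1.19 with a 95% interval of 1.11 to 1.29. In this comparison 3.40% of all genes tested were called, 242 higher and 307 lower. Within groups the KO minus WT difference was 0.15 for males, 0.26 for estrus, 0.32 for proestrus, 0.24 for diestrus and 0.31 for metestrus, and none was called (FDR between 0.289 and 0.975). The call held without any 1 of the 55 mice, with FDRs between 0.00106 and 0.0162. It was lost with edgeR's quasi-likelihood test (0.21, FDR 0.0697) and without quality weights (0.21, FDR 0.0638), while DESeq2 called it (0.21, FDR 0.0431).

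Parents were shared unevenly over the WT groups, so values are given by stage as well as pooled. Pooled, the 16 WT mice from B6 x B6 parents had 4.49 ± 0.21 log2 CPM (SD) and the 11 from Cnih3 x B6 parents 4.45 ± 0.23, compared with 4.69 ± 0.22 in the 28 KO mice. At each female stage, however, WT mice from Cnih3 x B6 parents were at a lower mean than those from B6 x B6 parents: 4.51 (n = 4) and 4.68 (n = 2) in diestrus, 4.09 (n = 1) and 4.49 (n = 6) in estrus, 4.27 (n = 1) and 4.58 (n = 3) in metestrus, and 4.16 (n = 1) and 4.36 (n = 4) in proestrus. In males it was the reverse, at 4.6 (n = 4) and 4.41 (n = 1). These gaps rest on few mice and are of the size of the KO minus WT difference, and the part of parents in it was not tested beyond the following fit. Among mice from Cnih3 x B6 parents alone, the KO minus WT difference was 0.40. WT metestrus, proestrus and estrus then held 1 mouse each, assumed to vary like the other groups, so only the effect size is given. Between stages and against males Oprl1 was not called in either genotype, with log2 fold changes between -0.23 and 0.23.

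**Figure D2:**
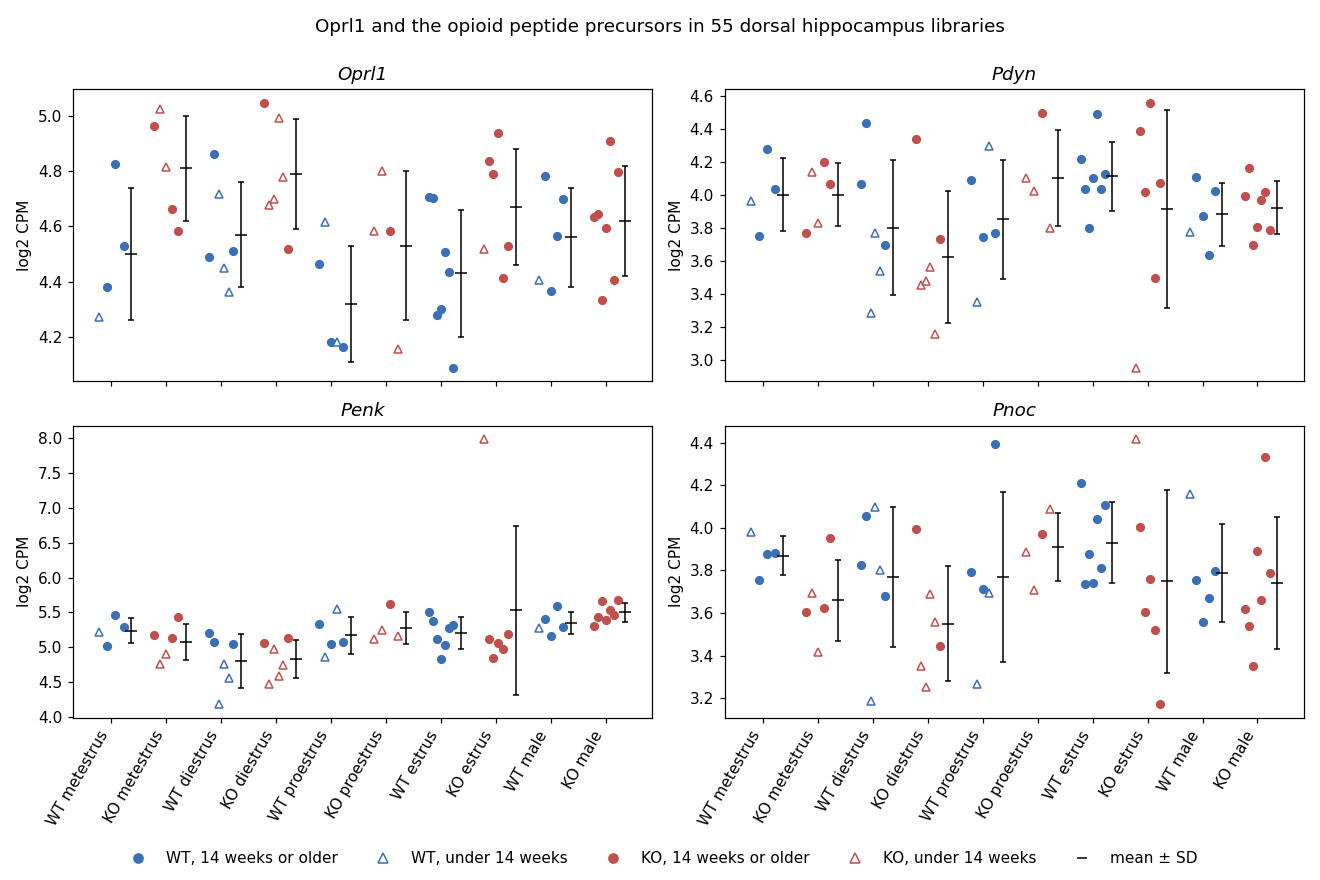
Normalized level (log2 CPM) of Oprl1, Pdyn, Penk and Pnoc in each of the 55 libraries, by group, with the mean ± SD of each group beside its points. Circles are mice of 14 weeks or older and open triangles younger mice. For Oprl1 the KO mean lies above the WT mean in each stage and in males, although points overlap, diestrus triangles of Penk lie under the diestrus circles, and 1 KO estrus library stands at 7.99 for Penk.

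Pdyn (chr2:129686565-129699844, minus strand), the dynorphin precursor, was lowest in KO diestrus. The 6 KO diestrus libraries ranged from 3.15 to 4.34 log2 CPM with a median of 3.52. The 4 KO proestrus libraries had 4.10, 4.02, 4.49 and 3.80, and the 5 KO metestrus libraries 3.77, 4.14, 3.83, 4.20 and 4.07. Thus 5 of the 6 KO diestrus libraries lay below every KO proestrus and KO metestrus library, and 1 lay among the highest. KO estrus ranged from 2.95 to 4.56 with a median of 4.04, and KO males from 3.69 to 4.16 with a median of 3.97. Both overlapped with KO diestrus.

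KO diestrus was lower than KO proestrus by 0.61 (SE 0.161, FDR 0.00242), a fold of 0.653 with a 95% interval of 0.523 to 0.816, in a comparison where 34.3% of all genes were called. It was lower than KO estrus by 0.52 (SE 0.154, FDR 0.00951; 30.7% of all genes called) and than KO males by 0.41 (SE 0.142, FDR 0.024; 28.7% of all genes called). KO metestrus exceeded it by 0.49 (SE 0.155, FDR 0.0329; 10.4% of all genes called). These 4 comparisons share the same 6 KO diestrus libraries, and a call was common among all genes in each, so a call for Pdyn does not set it apart. The call against proestrus held without any 1 mouse. That of metestrus minus diestrus was lost without KO diestrus replicate 2 (FDR 0.126), 3 (0.0768) or 5 (0.158) or KO metestrus replicate 4 (0.125) or 5 (0.0562). That of diestrus minus male was lost without KO diestrus replicate 2 (FDR 0.0935), 3 (0.0535) or 5 (0.146), and that of diestrus minus estrus without KO diestrus replicate 5 (0.065) or KO estrus replicate 2 (0.071). Without KO estrus replicate 1, diestrus minus estrus was -0.60 (SE 0.147, FDR 0.00197). With edgeR none of the 4 was called (FDR 0.143 to 0.737). In bulk tissue, fewer cells of a type and less RNA per cell cannot be told apart.

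In WT mice the corresponding differences of Pdyn were smaller and none was called: 0.26 (FDR 0.341) for metestrus minus diestrus, -0.16 (FDR 0.571) for diestrus minus proestrus, -0.38 (FDR 0.0757) for diestrus minus estrus and -0.14 (FDR 0.741) for diestrus minus male. WT diestrus ranged from 3.28 to 4.43 with a mean of 3.80 ± 0.41 (SD, n = 6), below the means of the other WT groups, which lay between 3.85 and 4.11. The difference between genotypes was itself not called. For diestrus minus proestrus it was -0.45 (SE 0.245, FDR 0.422). WT diestrus minus estrus was called without WT diestrus replicate 1 (FDR 0.0202), 2 (0.00964) or 6 (0.0196), the 3 WT diestrus mice over 14 weeks. By parents, WT diestrus mice had a mean of 4.25 from B6 x B6 (n = 2) and 3.57 from Cnih3 x B6 parents (n = 4, of which 3 are the young mice), so that age and parents cannot be told apart there. In the other WT groups the means from B6 x B6 and Cnih3 x B6 parents were 4.11 and 4.12 in estrus, 4.02 and 3.96 in metestrus, 3.87 and 3.77 in proestrus and 3.77 and 3.91 in males, where at least 1 parent class of each group was a single mouse. Averaged over groups, KO minus WT was near 0 for Pdyn (SE 0.0734, FDR 0.997) and 0.02 for Penk (SE 0.0887, FDR 0.956).

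Penk (chr4:4133531-4138819, minus strand), the enkephalin precursor, was lowest in diestrus of both genotypes. The 6 KO diestrus libraries ranged from 4.47 to 5.13 log2 CPM with a median of 4.86, and the 7 KO males from 5.31 to 5.68 with a median of 5.46. These groups did not overlap, and KO diestrus was lower by 0.77 (SE 0.168, FDR 0.000503), a fold of 0.586 with a 95% interval of 0.465 to 0.739, in the comparison with 28.7% of all genes called. The share of all genes without overlap between these groups was not counted. The KO proestrus libraries had 5.11, 5.24, 5.62 and 5.16, of which the lowest lay just under the highest KO diestrus library, and the difference from diestrus was 0.51 (SE 0.195, FDR 0.0356; 34.3% of all genes called). All KO females averaged over stages were lower than KO males by 0.44 (SE 0.128, FDR 0.0329), where 5.93% of all genes were called. The call against males held without any 1 mouse. That against proestrus was lost without KO diestrus replicate 2 (FDR 0.106), 4 (0.0562) or 5 (0.0679), KO proestrus replicate 2 (0.0766) or 3 (0.0885), or KO estrus replicate 2 (0.0508) or 6 (0.0517). That of all females was lost without KO male replicate 2 (FDR 0.064), 5 (0.0971) or 7 (0.239), KO estrus replicate 2 (0.0506) or KO proestrus replicate 1 (0.0509). A processed transcript on the opposite strand, A830012C17Rik, overlaps Penk over 499 bases.

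In WT diestrus Penk ranged from 4.18 to 5.20 with a median near that of KO diestrus (27.6 compared with 26.3 CPM). No WT comparison was called: WT diestrus minus estrus was -0.52 (SE 0.200, FDR 0.0544), metestrus minus diestrus 0.48 (FDR 0.141), diestrus minus proestrus -0.46 (FDR 0.16) and diestrus minus male -0.62 (SE 0.240, FDR 0.196). KO minus WT in diestrus was 0.01 (SE 0.211), and the difference between genotypes of diestrus minus male was -0.15 (SE 0.292, FDR 1). The calls in KO and their absence in WT therefore do not show that the genotypes differ.

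Pnoc (chr14:65400673-65425472, minus strand), the nociceptin precursor, had 1 call. The 6 KO diestrus libraries ranged from 3.25 to 3.99 log2 CPM with a median of 3.50, and the KO proestrus libraries had 3.89, 3.71, 3.97 and 4.09. Only 1 KO diestrus library exceeded a proestrus library. KO diestrus was lower by 0.35 (SE 0.139, FDR 0.0455), in the comparison with 34.3% of all genes called. The call was lost without any 1 of 20 libraries, controls of other groups included (FDR up to 0.154), and with RLE size factors (FDR 0.0605). In WT mice, diestrus minus proestrus was 0.08 (SE 0.158, FDR 0.77), and the difference between genotypes was -0.43 (SE 0.210, FDR 0.38). Averaged over groups Pnoc was lower in KO than in WT by 0.13 (SE 0.0637, FDR 0.27), which did not pass. Among mice from Cnih3 x B6 parents the difference was larger, at -0.32. In that fit WT metestrus, proestrus and estrus held 1 mouse each, so only the effect size is given.

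**Figure D3:**
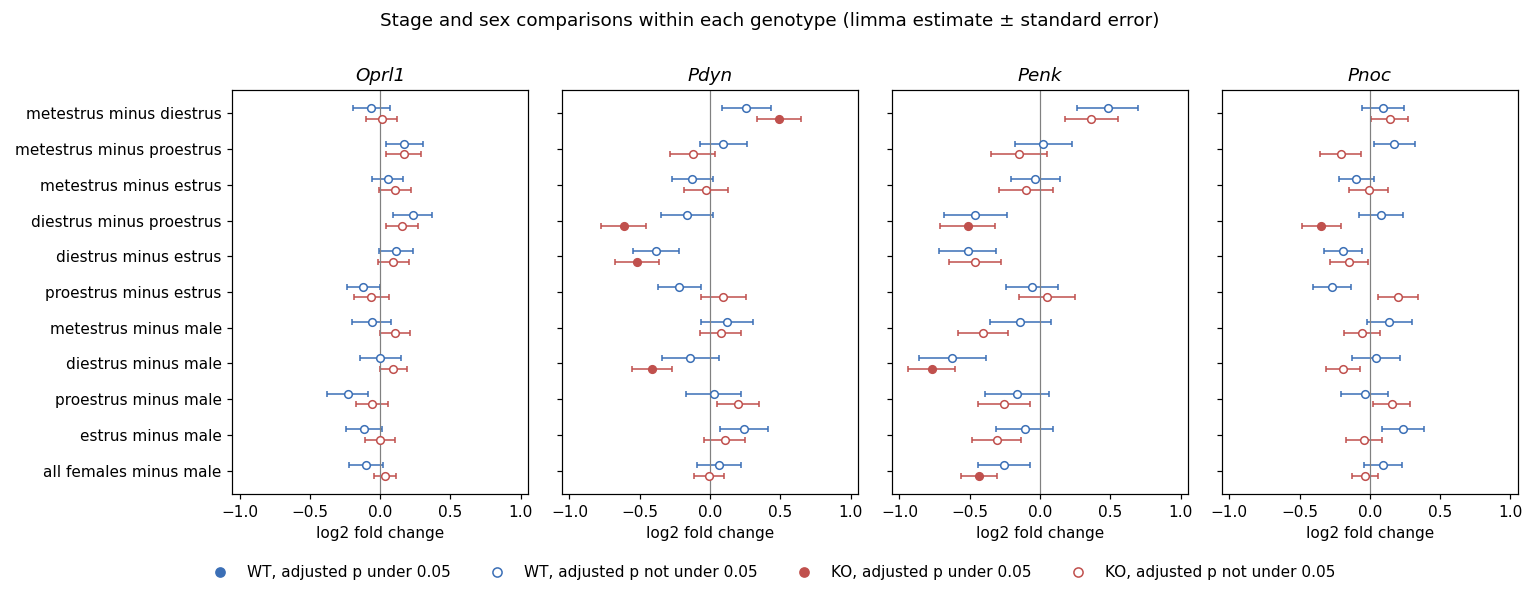
Log2 fold change with its standard error for 11 stage and sex comparisons within WT (blue) and KO (red), for Oprl1, Pdyn, Penk and Pnoc. Filled points have an FDR under 0.05. The 8 filled points are all KO, 4 for Pdyn, 3 for Penk and 1 for Pnoc, and 7 of the 8 involve KO diestrus directly.

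By family, each gene in each comparison counts as 1 pair. Between WT stages limma called 0 of 24 member pairs (5 at an unadjusted p under 0.05), beside 7.77% of the pairs of all genes. Of all genes, 30.6% were called in at least 1 of these comparisons. Between KO stages it called 5 of 24, beside 13.4% of all pairs, and 46.2% of all genes at least once. Of WT females against WT males it called 0 of 20 (1 unadjusted), beside 0.0421% of all pairs and 0.0866% of genes. Of KO females against KO males it called 3 of 20, beside 8.59% of all pairs and 33.7% of genes. Of KO against WT it called 1 of 24, beside 0.654% of all pairs and 3.64% of genes. Of the 44 differences between genotypes 0 were called (2 unadjusted, both of Pnoc), as for all genes (0%). edgeR called 0 in every family, with 0, 4, 0, 2, 4 and 2 at an unadjusted p under 0.05. DESeq2 called the KO minus WT difference of Oprl1 and nothing else, with 0, 1, 0, 0, 2 and 0 unadjusted, and gave Penk no adjusted p because of its outlier handling.

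Age moved with the diestrus levels of Pdyn and Penk. Of the diestrus mice, 3 of 6 WT and 4 of 6 KO were under 14 weeks. For Penk, the young WT diestrus mice ranged from 4.18 to 4.76 log2 CPM and the older ones from 5.05 to 5.20. The young KO diestrus mice ranged from 4.47 to 4.97 and the older ones, only 2, from 5.06 to 5.13. Young and older diestrus mice thus did not overlap in either genotype. For Pdyn, young KO diestrus mice ranged from 3.15 to 3.56 and older ones from 3.73 to 4.34, without overlap, while in WT the ranges were 3.28 to 3.77 and 3.70 to 4.43 and overlapped. How many of all genes tested separate in this way between so few mice was not counted. The gaps therefore do not set Penk or Pdyn apart from other genes.

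Young females at other stages were compared next. For Penk, the 3 young WT females outside diestrus ranged from 4.86 to 5.54, above all 3 young WT diestrus mice. The 6 young KO females outside diestrus ranged from 4.76 to 7.99 (KO estrus replicate 1), with a median of 5.13 compared with 4.66 in young KO diestrus mice, and overlapped with them. For Pdyn, 3 of the 4 KO proestrus mice were under 14 weeks and had 3.80 to 4.10, above all 4 young KO diestrus mice. The KO metestrus mice under 14 weeks also lay above all 4. KO estrus replicate 1, the library that stood apart for Penk, came from a mouse of 13 weeks and had 2.95, below all 4. The 3 young WT females outside diestrus ranged from 3.35 to 4.29 for Pdyn and overlapped with the young WT diestrus mice. How many of all genes tested separate between these few young mice was not counted, so the gaps do not set Penk or Pdyn apart. With Oprl1 and Pnoc the young and older diestrus mice overlapped in both genotypes.

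**Figure D4:**
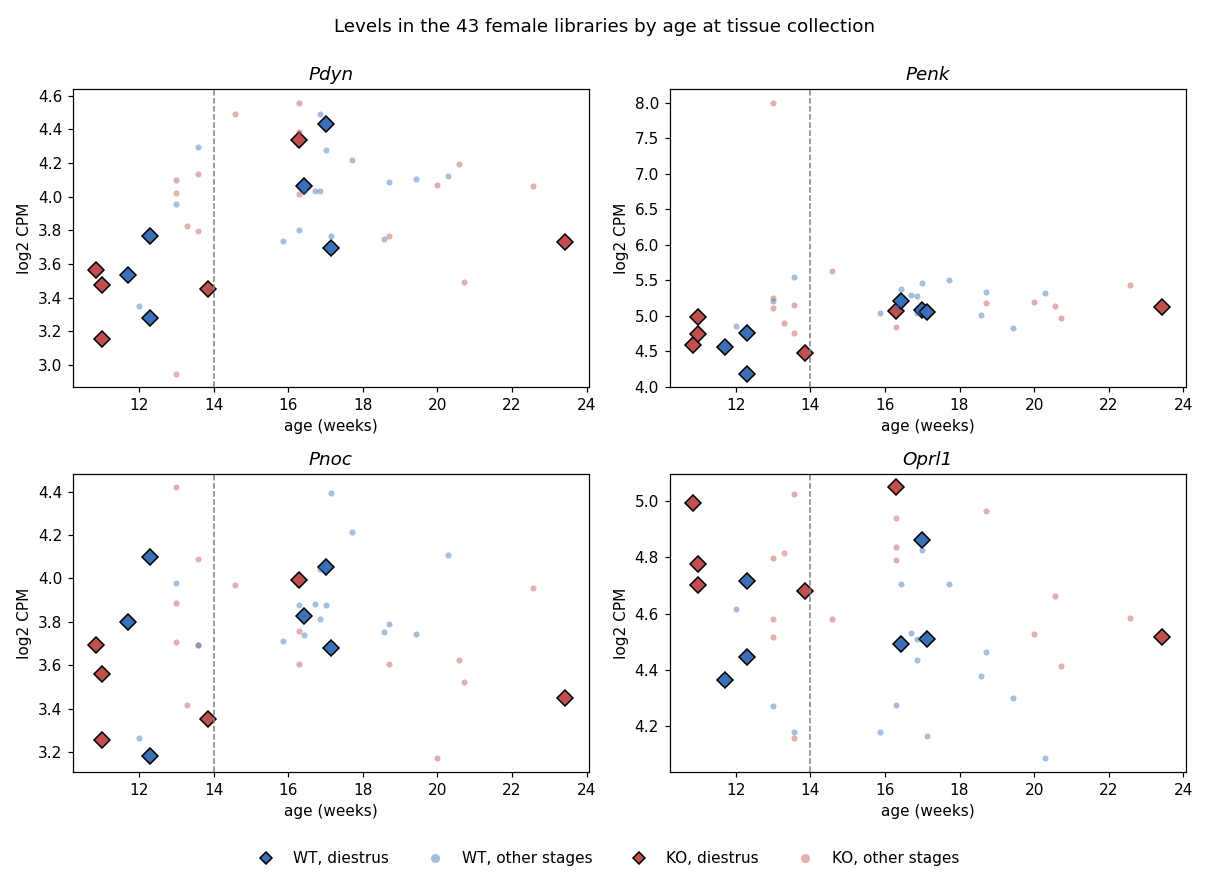
Normalized level (log2 CPM) of Pdyn, Penk, Pnoc and Oprl1 against age in weeks in the 43 female libraries. Outlined diamonds are diestrus, pale dots the other stages, blue is WT, red is KO, and the dashed line marks 14 weeks. Diestrus diamonds of Penk left of the line all lie under 5, and those right of it all lie above 5.

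Without the 7 young diestrus mice no call with diestrus remained. Penk in KO diestrus minus male became -0.43 (FDR 0.704), and Pdyn in KO diestrus minus proestrus -0.08 (FDR 0.964). The Pdyn differences of KO diestrus from metestrus, estrus and males changed sign, to -0.05, 0.02 and 0.12. Only 2 KO diestrus mice were then left. In the main fit with all mice, these 2 had quality weights of 0.509 and 0.433. The 4 young KO diestrus mice had 1.61 to 1.74 there, so the main fit leaned on the young mice. The weights of the fit without young diestrus mice are not given here. With age in weeks as a covariate, Pdyn in KO diestrus minus proestrus (-0.59, FDR 0.00665) and Penk in KO diestrus minus male (-0.72, FDR 0.0261) were called and the other 6 stage and sex calls were not. The age slope itself was 0.03 per week for Pdyn (SE 0.0148, FDR 0.648) and 0.01 for Penk (SE 0.0185, FDR 0.946).

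Markers of other cells moved with the same mice. Of 10 markers of mature oligodendrocytes, 8 were lower in KO diestrus than in males and 0 higher, where 28.7% of all genes were called, and their summed level was 3002 to 3283 CPM in young and 4402 to 5300 in older WT diestrus mice, and 2910 to 3729 and 3491 to 4758 in KO. Summed markers of dentate granule cells, which hold dynorphin, were 246.5 to 279.8 CPM in young and 334.6 to 403.5 in older WT diestrus mice, and 268.2 to 319.3 and 316.5 to 407.4 in KO. Those of CA1 pyramidal cells were 210.8 to 261.5 and 298.2 to 344 in WT, and 253.5 to 298.8 and 306.2 to 331.8 in KO. In each of these lists no marker was at 0 in any library. Markers of GABAergic interneurons overlapped between young and older diestrus mice, at 966.4 to 1191 and 899.3 to 1053 CPM in WT. The part of age, parents (all 3 young WT diestrus mice came from Cnih3 x B6 parents) and tissue composition in the Pdyn and Penk results was not tested further.

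Markers of tissues other than the hippocampus were compared in the same way. Of these lists, only the choroid plexus markers separated young from older diestrus mice in both genotypes. Summed choroid plexus markers were 192.7 to 1018 CPM in young and 44.72 to 167.5 in older WT diestrus mice, and 122.2 to 616.9 and 30.34 to 54.52 in KO, without overlap and in the opposite direction to Penk. Summed striatum markers, from a region rich in Penk, were 78.55 to 96.72 and 103.7 to 108 in WT, without overlap, and 84.98 to 99.18 and 91.33 to 100.8 in KO. Habenula and thalamus markers overlapped in both genotypes, at 50.09 to 65.78 and 60.85 to 70.98 CPM in WT and 53.24 to 73.01 and 56.32 to 71.02 in KO. Pituitary markers were at 4.254 to 20.53 and 22.57 to 70.7 CPM in WT and 7.902 to 172.8 and 16.49 to 51.84 in KO, with up to 3 of the 7 listed genes at 0. The part of these tissues in the Penk and Pdyn values was not tested.

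In KO diestrus minus male, where 28.7% of all genes were called, 0 of 7 tested striatum and 0 of 9 choroid plexus markers were called. Of 7 habenula and thalamus markers 1 was higher and 2 lower, and of 3 pituitary markers 2 were higher. Of 10 interneuron markers, of 8 granule cell markers and of 4 CA1 markers, 1 was higher and 2 lower in each list.

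KO estrus replicate 1, from a mouse of 13 weeks, held 12259 reads of Penk. Its Penk level was 231 CPM, compared with 26.9 to 34.6 in the other 5 KO estrus libraries and 16.3 to 48.3 in the other 54 libraries, 7.13 times the median of its group. It was also the highest of all libraries for Pnoc (19.4 CPM) and the lowest for Pdyn (6.98 CPM), while Oprl1 lay within the range of its group at 20.7 CPM. Of the genes most correlated with the members, some were also extreme in the same library. They were picked by correlations that include this library, so extreme values in it are partly built in. How many of all genes are highest or lowest in it was not counted. Bdnf, a neurotrophin, was at 323 CPM compared with 70.2 to 144 elsewhere. Npy, an interneuron peptide, was at 368 compared with 73.3 to 228, and Inhba, a subunit of activin, at 73.9 compared with 6.68 to 20.9. Gabrd, the delta subunit of the GABA-A receptor, was lowest of all at 10.4 CPM, compared with 19.9 to 42.8. The model gave this library a quality weight of 0.392, the fifth lowest of 55.

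Without this library the spread of Penk fell and its calls rose. WT diestrus was then lower than metestrus by 0.48 (SE 0.147, FDR 0.038; 6.87% of all genes called), than proestrus by 0.46 (SE 0.152, FDR 0.0475; 9.22%) and than estrus by 0.51 (SE 0.136, FDR 0.0064; 21.8%). KO diestrus minus male kept its size at -0.77 (SE 0.114) with an FDR of 1.79e-06, and KO estrus became lower than KO males by 0.49 (SE 0.122, FDR 0.0121; 8.15% of all genes called). All KO females minus males was -0.48 (SE 0.0875, FDR 0.000708). Once this library was left out, edgeR called the same Penk comparisons of KO as limma had with all mice, with FDRs of 0.0463 for diestrus minus proestrus, 0.00159 for diestrus minus male and 0.0388 for all females minus male, and DESeq2 gave 0.038, 0.000176 and 0.0129. Between WT stages, however, edgeR and DESeq2 each called 0 of 24 member pairs without this library, so neither gave the WT calls of limma. Each called 2 of 20 pairs of KO females against males, and KO estrus minus male was not among them. The order of Penk group means put KO estrus first at 5.53 ± 1.21 (SD, n = 6) with this library included, although the other 5 KO estrus libraries lay below every KO male, followed by KO males at 5.50 ± 0.14 (n = 7) and WT males at 5.35 ± 0.16 (n = 5). Both diestrus groups came last at 4.83 ± 0.27 and 4.80 ± 0.39 (n = 6 each), a step of 0.25 under KO metestrus.

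Of the enzymes and helpers that cut and finish neuropeptides, 9 of a list of 11 were tested. In KO diestrus minus proestrus, 5 of the 9 were lower and 0 higher, where 34.3% of all genes were called, with a median log2 fold change of -0.43 compared with -0.03 for all genes. The convertase Pcsk2 was called in 4 KO diestrus comparisons, at -0.57 (FDR 2.23e-05) against males and -0.51 (FDR 0.000444) against estrus. Pcsk1, the other main prohormone convertase, was lower than in estrus by 0.75 (FDR 0.00762), and KO metestrus exceeded KO diestrus by 0.79 (FDR 0.0131). Ctsl, cathepsin L, was lower than in proestrus by 0.59 (FDR 3.73e-05), Cpe, which trims the ends of cut peptides, by 0.46 (FDR 0.000249), and Pcsk1n, an inhibitor of Pcsk1, by 0.96 (FDR 0.00037). Scg5, a chaperone of Pcsk2, was lower than in males by 0.48 (FDR 0.000249). Against males 5 of 9 were lower and 0 higher (median -0.48; 28.7% of all genes called), against estrus 4 and 0 (median -0.28; 30.7%), and in metestrus minus diestrus 3 were higher and 0 lower (median 0.24; 10.4%). In WT the list medians had the same sign in diestrus minus proestrus (-0.16, 0 of 9 called), minus estrus (-0.17, 1 higher and 2 lower) and minus male (-0.27, 0 called). In WT metestrus minus diestrus the median was near 0, at 0.00155 compared with 0.0146 for all genes (1 higher, 0 lower).

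The summed level of this list also moved with age, at 1120 to 1358 CPM in the 4 young and 1559 to 1665 in the 2 older KO diestrus mice, while in WT the ranges of 1175 to 1365 and 1264 to 1632 overlapped. Over all groups Pcsk1 was higher in KO than in WT by 0.39 (SE 0.111, FDR 0.0331), the only gene of the list called there. Of all KO females against males only Ctsl was called, lower by 0.23 (FDR 0.0461).

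Of signalling genes downstream of the receptors, calls in KO diestrus comparisons went in both directions, at a share near that of all genes or below it. Of 22 tested genes, 2 were higher and 2 lower in KO diestrus minus proestrus, 2 and 4 against males, 3 and 3 against estrus, and 1 and 1 in metestrus minus diestrus, with medians between -0.08 and 0.04, beside 34.3%, 28.7%, 30.7% and 10.4% of all genes called. Those with the smallest FDRs are named. Kcnj6 was lower in KO diestrus by 0.76 against estrus (FDR 0.000659), Kcnj9 by 0.46 against males (FDR 0.000715) and Kcnj3 by 0.30 against estrus (FDR 0.0069). These encode subunits of potassium channels that such receptors open. Arrb1, a beta-arrestin that binds activated receptors, was higher by 0.36 against males (FDR 0.000644), and Gprasp1, which sorts receptors to lysosomes, by 0.40 against proestrus (FDR 0.000296). Regulators of G protein signalling went in both directions, with Rgs19 higher by 0.35 against estrus (FDR 0.00269) and Rgs7 lower than in males by 0.22 (FDR 0.00271). In KO minus WT only the receptor kinase gene Grk3 was called, at 0.14 (FDR 0.0349; 3.4% of all genes called), and in all KO females minus males only Arrb1, at 0.24 (FDR 0.0227; 5.93%).

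Across the 55 libraries, with group means removed, the members correlated weakly with one another. All correlations given here are descriptions over libraries that share tissue preparation and depth. Pdyn and Oprl1 had r = 0.34, Penk and Pnoc 0.45, and Pdyn and Penk -0.18. Without KO estrus replicate 1 (54 libraries, a choice made after the values were seen), Pdyn and Penk had 0.49, Pdyn and Pnoc 0.43 and Penk and Pnoc 0.26. The sign of the Pdyn and Penk relation thus rested on 1 library.

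The genes most like Oprl1 by this measure were Eogt (r = 0.726), Atad1 (0.712) and Lrrn3 (0.708). Those most like Pdyn were Tmem109 (0.781), Gabrd (0.77) and Abcg1 (0.758). For Pnoc they were Npy (0.713), Tmbim4 (0.704) and Tmem251 (0.695). For Penk they were Bdnf (0.885), Serpina3n (0.821) and Inhba (0.817), which fell to 0.654, 0.561 and 0.446 without KO estrus replicate 1. The highest for Penk were then Tspan13 (0.736), Cx3cl1 (0.697) and Pcyox1l (0.696). For the other 3 members, the same pairs had between 0.639 and 0.811 without it.

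At transcript level, estimated counts of Penk fell on Penk-201 (76.3% of the gene's total over the libraries) and Penk-202 (23.7%), and those of Pnoc on Pnoc-201 (59.9%) and Pnoc-202 (40.1%). For Oprl1, 33.3% fell on a processed transcript without an annotated coding sequence, and 30.5% and 19.5% on 2 protein-coding transcripts, with the first share between 0 and 96.4% in single libraries. With transcript counts summed per gene, Oprl1 in KO minus WT was 0.25 (FDR 0.0135) and Penk in KO diestrus minus male -0.75 (FDR 0.0059). Pdyn was given no value at this level, since its main coding transcript was not analysed here.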

How the data were processed

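The authors made cDNA from polyadenylated RNA of cleared tissue lysate with a SMARTer Ultra Low kit and sequenced paired ends. They aligned reads to GRCm38 with STAR 2.7.9a and counted uniquely aligned, unambiguous reads per gene with featureCounts 2.0.3. The authors deposited raw gene counts, a table of log2 CPM, and estimated counts per transcript, for which the submitters' notes name Salmon 1.5.2. Both reads of a pair may be counted, so counts are not molecules, and p-values reflect spread between mice. Of the count columns, 1 that matches none of these samples was set aside. The 55774 lines held 55487 genes.

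A gene was tested if it passed 1 CPM in 10 or more libraries and was not among 5 ribosomal RNA genes, which gave 16168. TMM factors (edgeR 4.0.16) and voomWithQualityWeights with empirical Bayes (limma 3.58.1, R 4.3.3) gave 1 model of 10 group means and 39 comparisons, with p-values adjusted over all genes within each. The log2 CPM differed from the authors' deposited log2 CPM by at most 4.97e-14 over 16164 genes. RPKM used exon lengths of the GENCODE annotation of GRCm38. The steps were tested on simulated data.

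The genes named are the 7 members, the 3 genes most correlated with each tested member, up to 3 genes with the smallest FDR of the signalling and processing lists per comparison with a member called, and marker genes beside a result. Members and lists were chosen with earlier results of these data known. Ages come from the labels, and parents and RNA integrity from the study's sample table. Alternatives were edgeR's quasi-likelihood test, DESeq2 1.42.0 without independent filtering, no quality weights, RLE size factors, no low-count filter, age as a covariate, transcript counts summed per gene, leaving out each mouse, leaving out diestrus mice under 14 weeks, only Cnih3 x B6 parents, only RNA integrity of at least 8, and a random block on numbers shared by mouse names.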

Additional observations from a re-analysis of the deposited data

Results flagged for a closer look

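The spread within groups was examined for each of the 7 genes in the 10 groups, 70 in all, by the gap of the most extreme library to its neighbour as a share of the group's range. Such a gap passes the 95% critical value by chance in about 1 group of 20. Gaps and ranges were taken on log2 CPM for the tested genes and on CPM for Oprm1, Oprd1 and Oprk1. Only 2 libraries passed. Penk in KO estrus replicate 1 had a ratio of 0.887, at 231 CPM where the next highest of the 6 libraries had 34.6. Oprm1 in WT metestrus replicate 1 had a ratio of 0.904, at 30 reads (0.697 CPM) where the next highest of the 4 libraries had 0.142 CPM, and it entered no called comparison. Both mice were 13 weeks old.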

How the results depend on the processing

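No paired analysis was possible because replicate numbers were given in accession order and pair no mice. Some mice share the first number of their names (26 mice in 8 sets), the meaning of which the labels do not give. With these sets as a random block, chosen after the data were seen, the correlation within sets was -0.00248 and the counts were 0, 5, 0, 3, 1 and 0 calls, the counts without it. The 5 member calls between KO stages became 0 with edgeR, with DESeq2, without quality weights and without young diestrus mice, 1 without the filter or with age in the model, and 3 with Cnih3 x B6 parents only. With summed transcript counts they became 0, but 3 of the 5 are of Pdyn, which has no value there. The 3 calls of KO females against males became 0 with edgeR, DESeq2, no weights or no young diestrus mice, and 1 with no filter or age, or with transcript counts, where the Pdyn call was not run. With all mice DESeq2 gave Penk no adjusted p, so in both families its Penk calls are missing rather than lost. The 0 calls of WT females against males became 1 (Penk in diestrus, -0.85, FDR 0.00605) with Cnih3 x B6 parents only. The 1 call of KO against WT became 0 with edgeR and without weights, and 2 with Cnih3 x B6 parents only. Without KO estrus replicate 1, a choice made after the data were seen, edgeR and DESeq2 gave 1 call each between KO stages, and edgeR 0 of KO against WT. The cause was not tested, apart from the fewer mice that some of these choices leave.

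Leaving out each mouse in turn gave 0 to 4 calls between WT stages, 1 to 6 between KO stages, 0 to 1 of WT females against males, 2 to 4 of KO females against males, 1 to 1 of KO against WT and 0 to 0 of differences between genotypes. Calls between KO stages fell to 2 without KO diestrus replicate 2 or KO estrus replicate 2, 1 without KO diestrus replicate 5 and 3 without KO proestrus replicate 3. Between WT stages they rose to 3 without KO estrus replicate 1 or WT diestrus replicate 1, 4 without WT diestrus replicate 2 or 6, and 1 without WT estrus replicate 3, 4 or 5. Penk in WT diestrus minus male was called without WT diestrus replicate 1, 2 or 6 or WT male replicate 1, 2 or 3 (-0.70 to -0.76, FDR 0.0237 to 0.0397). Pdyn calls of KO metestrus minus diestrus and KO diestrus minus male were lost without KO diestrus replicate 5 (FDR 0.158 and 0.146), and Penk in all KO females minus male without KO male replicate 7 (FDR 0.239).

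Signs turned without young diestrus mice for Pdyn in KO metestrus minus diestrus (-0.0474), KO diestrus minus estrus (0.023) and minus male (0.115), and in WT metestrus minus diestrus (-0.08), diestrus minus proestrus (0.189) and diestrus minus male (0.203). Pdyn in WT diestrus minus male was 0.0411 with age in the model, 0.0251 without WT diestrus replicate 3 and 0.0139 without replicate 5 (down to -0.259 without others), and WT diestrus minus proestrus was 0.00583 without replicate 3 (down to -0.305). Pnoc in WT diestrus minus proestrus turned to -0.0131 with edgeR, -0.00914 with DESeq2 (-0.0131 and -0.00964 without KO estrus replicate 1) and -0.617 with Cnih3 x B6 parents only. These signs were followed for comparisons with a call and their WT counterparts only. The values of Oprm1, Oprd1 and Oprk1 rest on medians of 12 to 27 reads.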
